A study of Mus musculus with 4 samples.

Results

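The 10 genes described here, known as markers of luminal progenitor cells, were followed across mouse mammary glands with and without ΔNp63, the truncated isoform of p63 that basal cells use. They were Kit, Cd14, Aldh1a3, Ltf, Lcn2, Lbp, Wfdc18, Plet1, Cyp24a1 and Rspo1. Each was chosen by name, with earlier results of these data known, and read from its identifier in the deposited table of 54393 genes. All 10 of 10 passed the filter on low counts that left 18917 genes for testing. There were 4 RNA sequencing libraries: Dnp63 cKO at 5 weeks, Dnp63 cKO at 10 days, WT at 5 weeks and WT at 10 days, counted from tamoxifen at puberty (4 weeks of age). The labels describe every donor as iK14-Cre; DNp63 f/f, with Cre under an inducible keratin 14 promoter that is active in basal cells. They also describe tamoxifen (1.5 mg/ml) for every library, and do not say what distinguishes WT from cKO animals. Cells carrying CD45, CD31 or Ter119 were removed by sorting, 100000 cells went into a library, and no label says whether animals were pooled or whether libraries came from separate animals. With n = 2 per genotype, 1 at each time point, no condition had a replicate. In the fit of both factors, p-values rest on how far the genotype difference changed between time points, with spread shared across genes. They do not measure the spread within a condition. Ages of 5 and 35 weeks also stand in the labels, and the later one is not reached by the stated times, so age was not used.

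The mammary duct has an outer basal layer and an inner luminal layer. Part of the luminal layer consists of cells that sense ovarian hormones. Luminal progenitors are a second luminal population, lacking hormone receptors, which gives rise to milk-secreting alveolar cells. They are recognised in the mouse by the receptor Kit and the surface protein Cd14. They also express the retinoic acid enzyme Aldh1a3 and a set of secreted antimicrobial proteins.

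Depth ran from 31714181 counts to 79122250 counts per library. Luminal RNA was present in all 4 libraries, with Krt8, Krt18 and Krt19 summing to between 5261 and 7041 CPM (counts scaled to a library of 1e6 with TMM factors). The libraries were not purely epithelial, since 8 fibroblast markers summed to between 22540 and 50530 CPM. In such bulk samples, fewer cells of a type and less RNA per cell cannot be told apart. Trp63, the gene that encodes ΔNp63, was counted as a whole gene and not by isoform. It stood at 25.5 and 12.8 CPM in cKO at 5 weeks and 10 days, against 160.5 and 46.8 CPM in WT. The difference was -2.26 on the log2 scale (SE 0.267), and edgeR's quasi-likelihood test gave it an adjusted p of 0.107. The adjusted p was 3.8e-09 in DESeq2, 1.8e-16 in edgeR without the filter on low counts and 0.082 in limma-voom.

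For 3 of the 10 genes a single library stood apart from the rest by more than 1 log2 unit, and their promoter letters are shown because the data turn on them. RefSeq promoter windows (GRCm38.p6) were found for 6 of the 10 genes. The letters run from 250 to 22 bases before the RefSeq transcript start, 5′ to 3′ on the plus strand. Capitals mark any TATAA (the TATA box core), GGAAG (a core bound by ETS factors such as Elf5) or GGTCA (a nuclear receptor half-site) on either strand. The Rspo1 window (chr4:124986180-124986408) lies inside the antisense gene Gm12930, which is listed at 0 counts in all 4 libraries. The Wfdc18 window is chr11:83708754-83708982, and the Ltf window is chr9:111019042-111019270.
Rspo1: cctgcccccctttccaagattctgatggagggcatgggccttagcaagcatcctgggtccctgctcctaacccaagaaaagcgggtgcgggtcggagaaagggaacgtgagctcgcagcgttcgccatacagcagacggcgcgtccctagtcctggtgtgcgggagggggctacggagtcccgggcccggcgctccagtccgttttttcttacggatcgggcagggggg
Wfdc18: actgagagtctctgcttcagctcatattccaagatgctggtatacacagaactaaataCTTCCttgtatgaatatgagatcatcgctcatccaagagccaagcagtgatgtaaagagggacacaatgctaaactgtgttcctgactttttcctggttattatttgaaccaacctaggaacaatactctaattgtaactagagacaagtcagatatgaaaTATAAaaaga
Ltf: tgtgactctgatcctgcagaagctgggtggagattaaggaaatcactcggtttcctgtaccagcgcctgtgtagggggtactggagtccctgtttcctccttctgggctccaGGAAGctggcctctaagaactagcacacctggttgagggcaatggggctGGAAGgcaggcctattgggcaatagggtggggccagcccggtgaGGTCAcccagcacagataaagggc

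The Rspo1 window held none of these motifs and was 64.2% G and C. The Wfdc18 window was 37.1% G and C, with 1 TATAA and 1 GGAAG match that do not overlap. The Ltf window was 57.6% G and C, with 2 GGAAG matches and 1 GGTCA match, none overlapping. Of 32851 RefSeq windows of the same length, 21.8% held TATAA, 60.1% GGAAG and 33% GGTCA. A skeleton of p53-family sites, a pair of CNNG cores with 6 bases between, was searched as well (N is any base). It occurred in 60.1% of windows, once in the Ltf window overlapping no other motif, and in neither of the other two. A match is a description of letters and not a bound site.

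The question for genotype was whether luminal progenitor transcripts differed between cKO and WT glands with time point held constant. In edgeR 0 of the 10 genes passed an adjusted p of 0.05, where 0.0581% of all tested genes did. An unadjusted p under 0.05 was reached by 2 of the 10, against a background of 11.6%. DESeq2 called 1 of the 10 (Ltf), against 2.71% of all genes, and limma-voom 0. The median log2 fold change was -0.21 for the 10 genes and -0.01 for all genes tested. There were 6 negative and 4 positive fold changes, so the group had no shared direction. The highest was that of Ltf, an antimicrobial iron carrier, and the lowest that of Rspo1, a Wnt agonist.

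The 10 genes differed far more between single libraries than this median shows. WT at 10 days was the library with the widest gap to its nearest neighbour for 7 of the 10 genes, against a background of 26.7% of genes. For 3 of them (Ltf, Wfdc18 and Rspo1) it lay more than 1 log2 unit outside the other 3 libraries, against 3.89% of all genes. At 10 days the log2 ratio of cKO over WT passed 1 in either direction for the same 3 genes (background 15.3%), and at 5 weeks for 0 of the 10 (background 14.3%). These ratios compare 1 library with 1 library and have no replicate check. Since the genes were chosen with earlier results known, the shares above are description only.

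**Figure D1:**
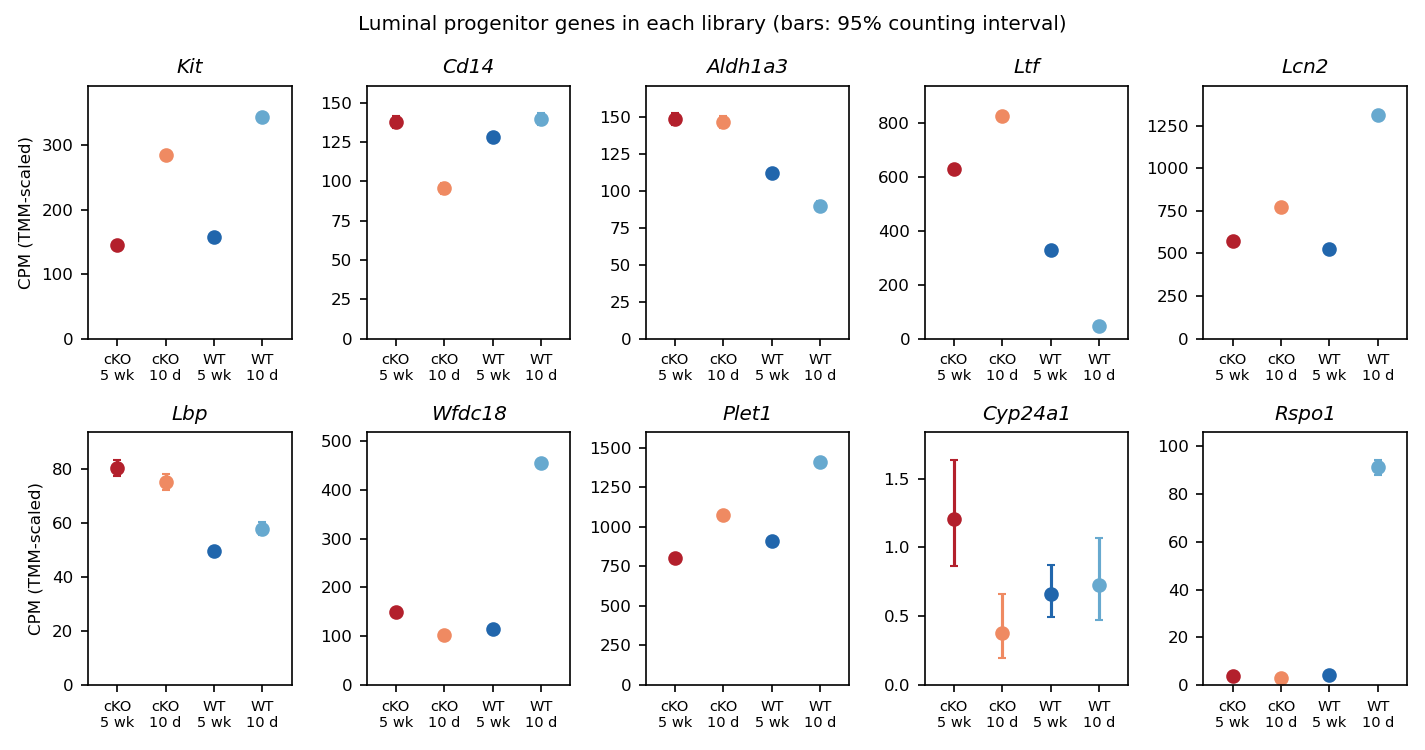
TMM-scaled CPM of each of the 10 genes (1 panel each, linear axis from 0) in cKO at 5 weeks, cKO at 10 days, WT at 5 weeks and WT at 10 days, with 95% counting intervals. WT at 10 days sits far above the other libraries for Rspo1 and Wfdc18 and far below them for Ltf, while both cKO libraries sit above both WT libraries for Aldh1a3 and Lbp.

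Among the surface proteins, Kit is the receptor tyrosine kinase for stem cell factor (ENSMUSG00000005672.12, GRCm38 chromosome 5, 75574916 to 75656722). It stood at 145 and 285 CPM in cKO at 5 weeks and 10 days, against 157 and 344 CPM in WT at 5 weeks and 10 days. The genotypes overlapped, and in each genotype the 5-week library was the lower. The log2 fold change for genotype was -0.20 (SE 0.220, adjusted p = 0.784 in edgeR). Without WT at 10 days it was 0.45, and without cKO at 5 weeks 0.15, both with the sign turned round. Fits without a library, here and below, had no time term, so time was not held constant in them. At matched times the log2 ratio of cKO over WT was -0.12 at 5 weeks and -0.27 at 10 days. Mast cells and melanocytes also use Kit. All 8 mast cell markers together summed to 12.9 and 9.76 CPM in cKO at 5 weeks and 10 days, against 3.67 and 4.96 CPM in WT, with Ms4a2 and Fcer1a at no more than 1 count in any library. The 6 melanocyte markers summed to between 29.6 and 63.6 CPM, nearly all of it Mitf, which DESeq2 called higher in cKO, and Tyrp1 held at most 3 counts. The part of these cells in the Kit level was not tested.

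Cd14, on chromosome 18 (36725067 to 36726798), encodes the surface co-receptor that hands bacterial lipopolysaccharide to Tlr4. It stood at 138 and 95.5 CPM in cKO at 5 weeks and 10 days, against 128 and 139.5 CPM in WT. Only cKO at 10 days was low, and the other 3 libraries lay close together. The genotype log2 fold change was -0.22 (SE 0.240, adjusted p = 0.777 in edgeR), and without cKO at 10 days it was 0.04. Macrophages and monocytes express Cd14 as well. Their 9 markers summed to 113 and 105 CPM in cKO at 5 weeks and 10 days, against 40.6 and 72.0 CPM in WT. Their part in the Cd14 level was not tested.

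Plet1, on chromosome 9 (50494525 to 50505482), encodes a membrane-anchored surface protein. It stood at 805 and 1072 CPM in cKO at 5 weeks and 10 days, against 907 and 1412 CPM in WT. The order of the 4 libraries was the same as for Kit, with both 5-week libraries below both 10-day libraries. The genotype log2 fold change was -0.28 (SE 0.302, adjusted p = 0.772 in edgeR), and without WT at 10 days it was 0.05. Time was not held constant in that last fit. The log2 ratio of cKO over WT was -0.17 at 5 weeks and -0.40 at 10 days. The antisense gene Plet1os spans the whole locus but held at most 10 counts per library.

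Of the enzyme genes, Aldh1a3 (chromosome 7, 66390890 to 66427517) makes retinoic acid from retinaldehyde. It stood at 149 and 147 CPM in cKO at 5 weeks and 10 days, against 112 and 90.2 CPM in WT. Both cKO libraries lay above both WT libraries. The log2 fold change was 0.55 (SE 0.205), or 1.47-fold higher, with an unadjusted p of 0.0379 and an adjusted p of 0.402 in edgeR. Without each library in turn it lay between 0.40 and 0.71. The positive sign of those values was fixed by both cKO libraries lying above both WT libraries, so it is no separate check. Relative to the summed luminal keratins Krt8, Krt18 and Krt19 it amounted to 2.83% and 2.09% in cKO at 5 weeks and 10 days, against 1.97% and 1.48% in WT.

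Cyp24a1 (chromosome 2, 170482708 to 170497145) encodes the hydroxylase that inactivates vitamin D. It was barely detected, at 41 and 12 counts in cKO at 5 weeks and 10 days, against 51 and 25 counts in WT. In CPM these were 1.21 and 0.378 in cKO, against 0.664 and 0.726 in WT. The 95% Poisson intervals, which cover counting error only, ran from 0.867 to 1.64 and from 0.195 to 0.660 CPM for cKO, and from 0.494 to 0.873 and from 0.470 to 1.07 CPM for WT. The libraries of the 2 genotypes overlapped, with a log2 fold change of 0.04 (SE 0.636, adjusted p = 0.986 in edgeR). The log2 ratio of cKO over WT was 0.82 at 5 weeks (counting interval 0.23 to 1.49) and -0.87 at 10 days (-2.07 to 0.10). The locus overlaps Pfdn4, on the other strand, over 718 bases. Pfdn4 held between 243 and 783 counts, and without a known strand setting reads from the overlap cannot be told apart.

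Among the secreted proteins, Ltf, Wfdc18 and Rspo1 differed more between their lowest and highest libraries than any other of the 10 genes. Ltf (ENSMUSG00000032496.7, chromosome 9, 111019271 to 111042767) encodes lactoferrin, the iron-binding antimicrobial protein of milk, and its promoter letters are printed above. It stood at 631 and 828 CPM in cKO at 5 weeks and 10 days, against 329 and 46.1 CPM in WT. Both cKO libraries lay above both WT libraries, and WT at 10 days was 7.13-fold lower than the next library (this gap, like the others below, from log2 CPM with a prior count of 2). The ratio of cKO over WT was 0.94 on the log2 scale at 5 weeks and 4.17 at 10 days. The fitted log2 fold change was 2.55 (SE 1.07, adjusted p = 0.504 in edgeR). DESeq2 gave an adjusted p of 0.000426, and over all alternatives the adjusted p lay between 0.000426 and 0.937. Without WT at 10 days the log2 fold change was 1.15, and without WT at 5 weeks 3.99.

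Neutrophils also make lactoferrin and lipocalin 2, and the sum of their markers was higher in both cKO libraries than in both WT libraries. The 9 neutrophil markers summed to 8.34 and 21.1 CPM in cKO at 5 weeks and 10 days, against 5.17 and 3.11 CPM in WT. S100a9, the most abundant of them, stood at 2.83 and 7.21 CPM in cKO, against 1.33 and 0.290 CPM in WT. DESeq2 called S100a9 and Ngp higher in cKO, against 2.71% of all genes, while edgeR and limma-voom called 0 of the 6 tested. Both cKO libraries lay above both WT libraries for 4 of those 6 (22.6% of all genes) and below them for 0 (23.3%). Ly6g was at 0 counts in WT at 10 days and held at most 10 counts elsewhere. Their part in the Ltf difference was not tested.

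Lcn2 (chromosome 2, 32384633 to 32388252) encodes lipocalin 2, which starves bacteria of iron by binding siderophores. It stood at 573 and 773 CPM in cKO at 5 weeks and 10 days, against 524 and 1314 CPM in WT. It was thus highest where Ltf was lowest, in WT at 10 days. The genotype log2 fold change was -0.32 (SE 0.343, adjusted p = 0.777 in edgeR), and without WT at 10 days it was 0.36.

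Lbp (chromosome 2, 158306493 to 158332852) encodes the plasma protein that carries lipopolysaccharide to Cd14. It stood at 80.5 and 75.3 CPM in cKO at 5 weeks and 10 days, against 49.6 and 58.0 CPM in WT. Both cKO libraries lay above both WT libraries by a margin larger than the difference within either genotype. The log2 fold change was 0.54 (SE 0.201), or 1.45-fold higher, with an unadjusted p of 0.0392 and an adjusted p of 0.405 in edgeR. Leaving out each library in turn gave values between 0.43 and 0.65, whose sign was fixed by that order of the libraries. Adipocytes are a further source of Lbp. Their 8 markers summed to 284 and 911 CPM in cKO at 5 weeks and 10 days, against 148 and 113 CPM in WT, and their part was not tested.

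Wfdc18 (ENSMUSG00000000983.13, chromosome 11, 83709015 to 83711348) encodes a small secreted protein with a whey acidic protein domain. It stood at 149.6 and 102 CPM in cKO at 5 weeks and 10 days, against 115 and 455 CPM in WT. The library apart was WT at 10 days, 3.04-fold above the next, and the other 3 lay closer together. The log2 ratio of cKO over WT was 0.38 at 5 weeks and -2.15 at 10 days. The fitted log2 fold change was -0.89 (SE 0.780, adjusted p = 0.737 in edgeR), and without WT at 10 days it was 0.13.

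Rspo1 (ENSMUSG00000028871.7, chromosome 4, 124986430 to 125009099) encodes R-spondin 1, a secreted Wnt agonist that luminal cells make. It stood at 3.77 and 2.83 CPM in cKO at 5 weeks and 10 days, against 4.15 and 91.2 CPM in WT. In counts these were 128 and 90 in cKO, against 319 and 3142 in WT. WT at 10 days was 21.7-fold above the next library, and the other 3 differed little from each other. Ranked by that gap, Rspo1 was in place 3 among 10987 genes that reached 10 CPM in at least 1 library. It reached 10 CPM only in WT at 10 days, the library whose gap was ranked, so its place is description only. The fitted log2 fold change was -2.58 (SE 1.79, adjusted p = 0.682 in edgeR), and without WT at 10 days it was -0.33. The both-WT-above-both-cKO order of Rspo1 therefore rests, at 5 weeks, on 4.15 against 3.77 CPM, whose counting interval for the ratio includes equality (log2 -0.14, from -0.45 to 0.16).

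In all, both cKO libraries lay above both WT libraries for 3 of the 10 genes (Aldh1a3, Ltf and Lbp) and below them for 1 (Rspo1). Over all tested genes these shares were 22.6% and 23.3%, so the members' counts lay near the background.

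**Figure D2:**
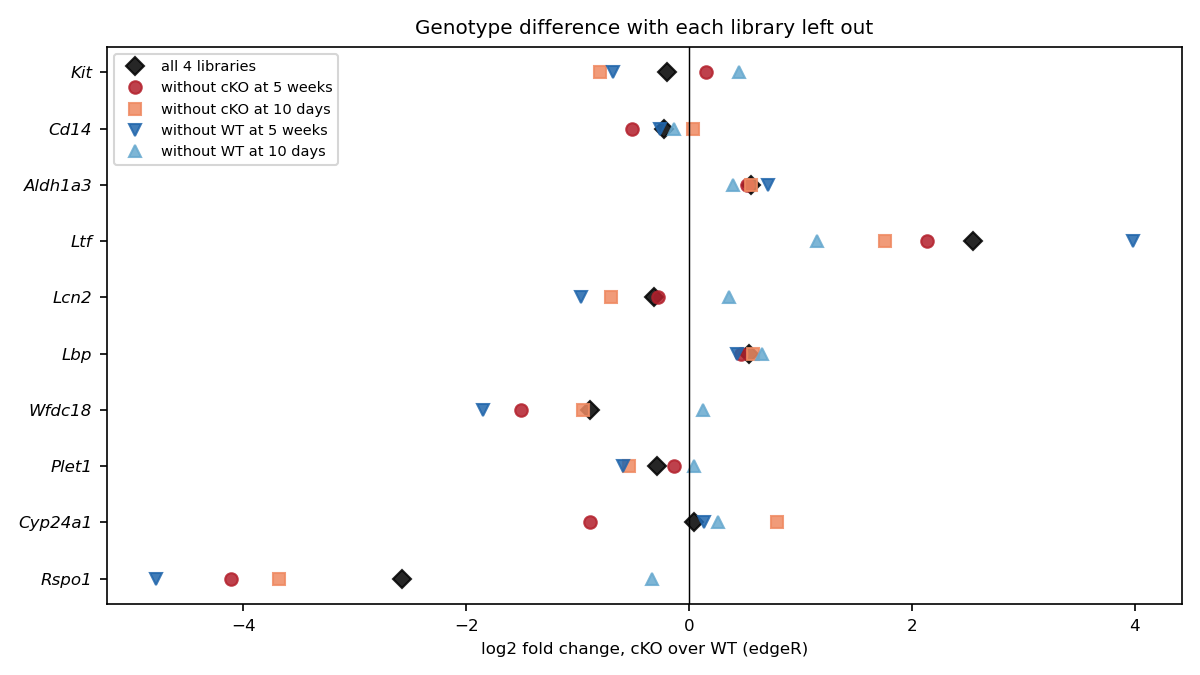
Log2 fold change of cKO over WT for each gene from edgeR, with all 4 libraries and a time term (diamond) and with each library left out and no time term (other symbols). Aldh1a3 stays between 0.40 and 0.71 and Lbp between 0.43 and 0.65, while Rspo1 runs from -4.79 to -0.33. Kit, Lcn2, Wfdc18 and Plet1 pass 0 when WT at 10 days is left out. For Aldh1a3, Lbp, Ltf and Rspo1, whose genotypes did not overlap, leaving out a library could not turn the sign.

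The second factor of the design was time, asked within the same fit with genotype held constant. In edgeR 0 of the 10 genes passed for time, where 0.0634% of all genes did, and 2 of the 10 (Kit and Lcn2) had an unadjusted p under 0.05, against 5.35%. DESeq2 called 1 of the 10 (Kit), against 1.01% of all genes, and limma-voom 0. Both 5-week libraries lay below both 10-day libraries for 3 genes, Kit, Lcn2 and Plet1, against 13.5% of genes in that direction, and above them for 0 (13.3% of genes). The median for time was -0.30 on the log2 scale for the 10 genes and 0.03 for all genes. Between single libraries, 5 of the 10 passed a log2 ratio of 1 in WT (background 13.4%) and 1 (Cyp24a1) in cKO (background 10.4%).

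Kit had the smallest p for time. Its log2 fold change of 5 weeks over 10 days was -1.05 (SE 0.222, unadjusted p = 0.00395, adjusted p = 0.411 in edgeR), or 2.07-fold lower. The single-library ratios were -0.97 in cKO and -1.13 in WT. DESeq2 gave an adjusted p of 0.0168 and edgeR without the filter on low counts 0.00815. For the same adjusted p, limma-voom gave 0.325 and edgeR with no genotype term 0.9998. The sign was negative in every alternative. Both 5-week libraries lay below both 10-day libraries, so leaving out a library could not turn it.

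Lcn2 had a log2 fold change for time of -0.88 (SE 0.345, adjusted p = 0.916 in edgeR), with ratios of -0.43 in cKO and -1.33 in WT. Plet1 had -0.53 (SE 0.302, adjusted p = 1.0). For Ltf the genotypes pointed opposite ways, with a log2 ratio of 5 weeks over 10 days of -0.39 in cKO and 2.83 in WT. Wfdc18 (0.55 in cKO and -1.98 in WT) and Rspo1 (0.41 in cKO and -4.44 in WT) also went opposite ways. Rspo1 was called for time in 1 setting, without cKO at 10 days and with no genotype term, at a log2 fold change of -4.56 and an adjusted p of 0.0181. Its adjusted p over all alternatives lay between 0.0181 and 1.0.

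**Figure D3:**
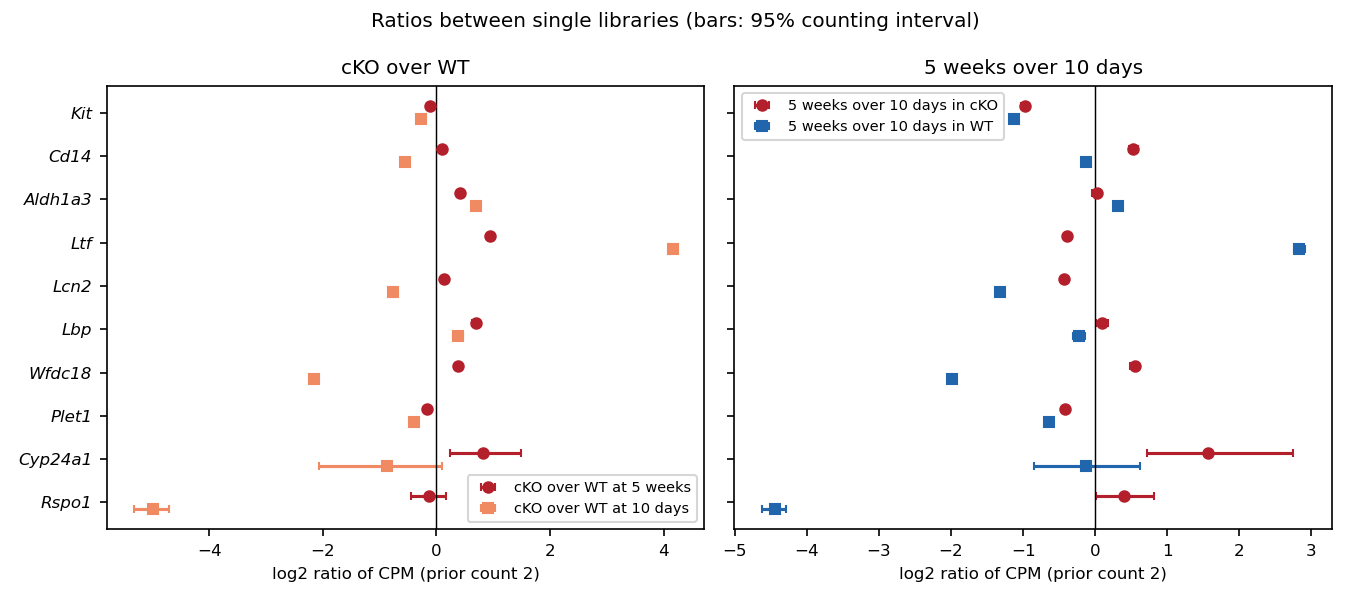
Log2 ratios between single libraries for each gene, with 95% counting intervals: cKO over WT at each time point (left) and 5 weeks over 10 days in each genotype (right). Ltf and Rspo1 are the 2 genes whose 10-day genotype ratios lie beyond 4 log2 units (4.17 and -4.99), and for Kit both time ratios lie near -1 (-0.97 and -1.13).

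Levels can be compared between genes only per length, here as CPM per kilobase of merged exons. Plet1 was the highest, at 539 ± 136 CPM per kilobase (mean ± SD over the 4 libraries). Lcn2 (303 ± 138), Wfdc18 (168 ± 137) and Ltf (133 ± 99.5) followed. On merged exons Plet1 lay above Lcn2, and Lcn2 above both Wfdc18 and Ltf, in each of the 4 libraries. The order of Wfdc18 and Ltf changed between libraries. With another length the order of genes can differ. Cd14 stood at 72.3 ± 11.8 CPM per kilobase, with a lowest library (55.1) above the highest of Aldh1a3 (32.2). Aldh1a3 (27.0 ± 6.15), Kit (26.1 ± 10.9), Lbp (13.6 ± 3.0) and Rspo1 (13.2 ± 22.6) overlapped one with the next. Cyp24a1 was last, at 0.209 ± 0.0968 CPM per kilobase.

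The summed level of the 10 genes was 2676 and 3380 CPM in cKO at 5 weeks and 10 days, against 2327 and 3950 CPM in WT. Set against luminal keratins in the same library, Plet1 amounted to 15.3% and 15.2% in cKO at 5 weeks and 10 days, against 15.9% and 23.1% in WT. Ltf amounted to 12.0% and 11.8% in cKO, against 5.77% and 0.755% in WT. On this scale the 2 cKO libraries nearly coincided for both genes. Wfdc18 amounted to 2.84% and 1.45% in cKO, against 2.02% and 7.45% in WT, so the distance of WT at 10 days remained.

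A further 15 genes known from luminal progenitors gave no call either (0 of 15 for genotype in edgeR). At an unadjusted p under 0.05, 2 were lower and 0 higher, where 5.8% of all genes were lower and 5.8% higher, and the median was -0.31. For these and all the lists that follow, limma-voom called 0 genes for genotype unless stated, and DESeq2's calls are given where there were any. DESeq2 called 1 of the 15, Ehf. Mfge8, a milk fat globule protein, stood at 882 and 1526 CPM in cKO at 5 weeks and 10 days, against 1017 and 2043 CPM in WT. The iron carrier Trf, a relative of Ltf, stood at 354 and 402 CPM in cKO, against 363 and 937 CPM in WT. Its high library was thus the one where Ltf was low. The casein gene Csn3 was, like Ltf, lowest in WT at 10 days, at 391 and 351.5 CPM in cKO, against 360 and 132 CPM in WT. The epithelial transcription factor gene Ehf stood at 64.6 and 47.1 CPM in cKO, against 176 and 147 CPM in WT (-1.54 on the log2 scale, SE 0.199, edgeR adjusted p = 0.123). Kcnn4, a potassium channel gene, had a log2 fold change of -1.35 (SE 0.496, adjusted p = 0.423). WT at 10 days was the highest library for 8 of these 15 genes and for 6 of the 10, against 22.9% of all genes.

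Genes that act with the surface receptors were examined next. Of 8 genes for Kit ligand and signalling, 0 were called and 0 reached an unadjusted p of 0.05 (median 0.16). Kitl, the ligand, stood at 189.9 and 146 CPM in cKO at 5 weeks and 10 days, against 80.5 and 138 CPM in WT (edgeR log2 fold change 0.66, SE 0.332, adjusted p 0.523), and the adaptor gene Gab2 had 0.44 (SE 0.203). Pik3r1 ran from 151 to 192 CPM over the libraries, and Cbl from 61.6 to 80.2 CPM. Of 10 genes for lipopolysaccharide recognition, 0 were called, with a median of 0.21. At an unadjusted p under 0.05 in edgeR, 2 were higher and 0 lower, where 5.8% of all genes were higher and 5.8% lower. DESeq2 called Tlr4, where it called 2.71% of all genes. Tlr4, the signalling receptor that Cd14 and Lbp serve, stood at 27.9 and 18.5 CPM in cKO, against 10.1 and 10.2 CPM in WT (edgeR log2 fold change 1.17, SE 0.274, adjusted p 0.266). Its partner Ly96 stood at 5.45 and 2.74 CPM in cKO, against 1.81 and 1.80 CPM in WT. Both are abundant in macrophages, whose markers were also higher in cKO, as given above for Cd14. The part of macrophages in the Tlr4 and Ly96 levels was not tested. The adaptor gene Myd88 ran from 101 to 218 CPM, Irak1 from 98.7 to 116 CPM and Traf6 from 46.3 to 59.5 CPM.

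Acute phase and antimicrobial genes were the list with the highest median among those of the secreted proteins. Of 13 tested, 0 were called, 4 were higher and 1 lower at an unadjusted p under 0.05, and the median was 0.66. Over all genes 5.8% were higher and 5.8% lower at that level in edgeR. DESeq2 called C3, Cxcl1 and Cxcl2, all higher, where it called 2.71% of all genes. Complement C3 stood at 3085 and 3273 CPM in cKO at 5 weeks and 10 days, against 1940 and 1397 CPM in WT. The neutrophil chemokine gene Cxcl1 stood at 512 and 563.5 CPM in cKO, against 249 and 160 CPM in WT (edgeR log2 fold change 1.43, SE 0.298, adjusted p 0.237). Its relative Cxcl2 had a log2 fold change of 1.25 (SE 0.266, adjusted p = 0.237). Nfkbiz, a regulator of Lcn2 in mouse cells, stood at 714 and 786 CPM in cKO, against 482 and 465 CPM in WT, an order that Lcn2 itself did not share. Of 5 tested genes with whey acidic protein domains related to Wfdc18, 0 were called and 1 (Wfdc3, -1.40, SE 0.545) was lower at an unadjusted p under 0.05, with a median of -0.83. Wfdc2 stood at 193 and 324 CPM in cKO, against 269 and 103 CPM in WT, and Slpi at 26.2 and 70.8 CPM in cKO, against 103 and 72.4 CPM in WT. Wfdc1 had a log2 fold change of 0.73 (SE 0.418).

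The retinoid list had 0 calls among 15 tested genes, with 1 higher and 3 lower at an unadjusted p under 0.05 and a median of 0.0041. DESeq2 called Crabp1, Crabp2 and the retinol transporter gene Stra6, all lower, where it called 2.71% of all genes. Over all genes 5.8% were higher and 5.8% lower at an unadjusted p under 0.05 in edgeR. The genes Crabp1 and Crabp2, whose proteins bind retinoic acid, were at the low end. Crabp1 stood at 5.18 and 6.49 CPM in cKO at 5 weeks and 10 days, and both WT libraries lay higher, up to 38.2 CPM at 10 days (log2 fold change -2.05, SE 0.340, adjusted p = 0.207 in edgeR). Crabp2 had -2.00 (SE 0.539, adjusted p = 0.354). Aldh1a3 thus lay above WT while these 2 lay below it, and none of the 3 was called in edgeR. The receptor genes Rarg (95.1 to 158 CPM) and Rxra (95.9 to 130 CPM) and the reductase gene Dhrs3 (59.3 to 105.5 CPM) had overlapping genotypes. For vitamin D, 0 of 5 tested genes were called and 1 was lower at an unadjusted p under 0.05 (median -0.08). This was the receptor gene Vdr, at 59.1 and 82.7 CPM in cKO, against 117 and 135 CPM in WT (edgeR log2 fold change -0.84, SE 0.198, adjusted p 0.268). Cyp27a1 ran from 13.2 to 30.5 CPM, and the calcium channel gene Trpv6 from 0.943 to 3.22 CPM (log2 fold change -0.73, SE 0.442).

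R-spondins act by holding the ubiquitin ligases Rnf43 and Znrf3 away from Wnt receptors, through the Lgr family. Of 10 genes in this list, 0 were called, and 0 were higher and 1 lower at an unadjusted p under 0.05 (median 0.08). Over all genes 5.8% were higher and 5.8% lower at that level in edgeR. Lgr6 stood at 53.3 and 53.3 CPM in cKO at 5 weeks and 10 days, against 49.4 and 133 CPM in WT, so that its high library was the one where Rspo1 was high. Lgr4 stood at 50.1 and 54.3 CPM in cKO, against 63.1 and 78.1 CPM in WT. Rnf43 stood at 16.3 and 19.9 CPM in cKO, against 27.2 and 39.1 CPM in WT (edgeR log2 fold change -0.86, SE 0.224, adjusted p 0.300), and Znrf3 had -0.58 (SE 0.240). In this R-spondin list WT at 10 days was the highest library for 4 of 10, against 22.9% of all genes. Wnt4 ran from 93.7 to 186 CPM and was highest in WT at 5 weeks.

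**Figure D4:**
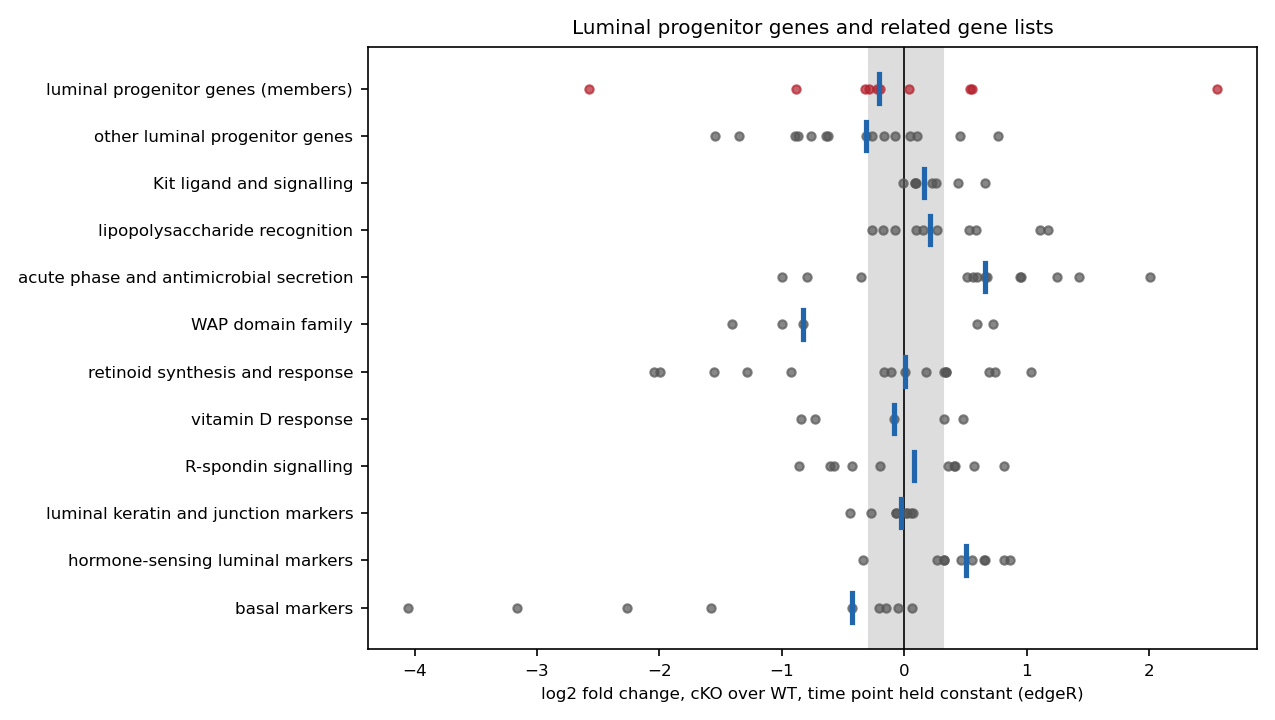
Log2 fold change of cKO over WT, with time point held constant, for each tested gene (points) of the 10 luminal progenitor genes (top row) and 11 related lists, with the median of each list as a bar, the median of all genes as a line and their middle 50% as the grey band. The 10 genes spread from -2.58 (Rspo1) to 2.55 (Ltf) around a median of -0.21.

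Markers of neighbouring epithelial cells were measured in the same libraries. Over all genes, 5.8% were higher and 5.8% lower at an unadjusted p under 0.05 in edgeR. For genotype edgeR called 0.0581% of all genes and DESeq2 2.71%. Luminal keratin and junction genes had 0 of 8 called, 0 at an unadjusted p under 0.05 and a median of -0.03, with Krt8 at 2398 and 3429 CPM in cKO at 5 weeks and 10 days, against 2467 and 3085 CPM in WT. Hormone-sensing luminal genes had 0 of 10 called, 4 higher and 0 lower at an unadjusted p under 0.05 and a median of 0.51. WT at 10 days was the lowest library for 8 of these 10, against 27.7% of all genes, as it was for Ltf. Prlr, the prolactin receptor gene and the most abundant of them, stood at 966 and 837 CPM in cKO, against 586 and 445 CPM in WT. Basal markers had 0 of 9 called, with 0 higher and 4 lower at an unadjusted p under 0.05. DESeq2 called 4 of them, all lower. Basal markers summed to 2401 and 2253 CPM in cKO at 5 weeks and 10 days, against 16643 and 5787 CPM in WT. Squamous markers had 4 of 11 called, all lower in cKO (Krt13, Krt6b, Krtdap and Dsg3), limma-voom called these 4 as well, and DESeq2 called 7, all lower. Squamous markers summed to 188 and 137 CPM in cKO at 5 weeks and 10 days, against 4091 and 771 CPM in WT. The part of basal and squamous cells in the levels of the 10 luminal progenitor genes was not tested.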

How the data were processed

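The authors deposited 1 table of estimated counts (expected counts, whole numbers) for 54393 genes in 4 libraries. The submitters' processing notes name Salmon and the GRCm38 build, without a version or role. Annotation and strand setting were not given in the sources used here. Of the identifiers, all 54393 identifiers matched GENCODE M21, and a repeated symbol was read from its identifier with most counts.

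A minimum count of 10 (filterByExpr) kept 18917 genes. After TMM scaling, edgeR 4.0.16 in R 4.3.3 fitted robust quasi-likelihood models to genotype plus time point, with 1 residual degree of freedom and Benjamini-Hochberg adjustment over all tested genes (threshold 0.05). Each SE is the size of the log2 fold change over the root of its F statistic. Ratios of single libraries (log2 CPM, prior count 2) had no test, and 95% intervals cover counting error only. The fit was tested on simulated data. DESeq2 1.42.0, limma-voom (limma 3.58.1), other scalings, no filter, single-factor models and leaving out each library were alternatives.

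The 10 genes and all lists were chosen with earlier results of these data known. Named genes are the 3 of highest mean CPM and the 2 of smallest p in each pathway list, and the 2 of highest mean CPM in each marker list. Stra6, Ngp, marker genes near 0 and the 4 called squamous genes were added after their values were seen.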

Additional observations from a re-analysis of the deposited data

Results flagged for a closer look

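Several of the 10 genes moved in opposite directions at the 2 time points or in the 2 genotypes, each by more than counting error. Each combination of genotype and time has 1 library, so none of these differences was tested. For genotype, the log2 ratio of cKO over WT was higher at 5 weeks than at 10 days by 2.53 for Wfdc18 (0.38 and -2.15), by 0.89 for Lcn2 (0.13 and -0.77) and by 0.65 for Cd14 (0.10 and -0.55). For time, the log2 ratio of 5 weeks over 10 days differed between cKO and WT by 4.85 for Rspo1 (0.41 in cKO and -4.44 in WT) and by -3.23 for Ltf (-0.39 and 2.83). The same difference was 2.53 for Wfdc18 (0.55 and -1.98), 0.65 for Cd14 (0.53 and -0.12) and 0.32 for Lbp (0.10 and -0.22).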

How the results depend on the processing

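The number of genes called for genotype was 11 in the reported fit. It was 5 with DESeq2's size factors in edgeR, 3 with upper-quartile factors, 1235 (565 higher and 670 lower) with no filter on low counts, 513 (236 higher and 277 lower) with DESeq2, 29 with limma-voom and 0 with no time term (2182 at an unadjusted p under 0.05). For time it was 12 as reported, 638 with no filter, 192 with DESeq2, 39 with limma-voom and 1 with no genotype term. Without a library, and with no second term, it ran from 0 to 60 for genotype and from 0 to 18 for time. In those fits a genotype or time left with 1 library is assumed to vary like the rest. Their values, including the turned signs below, are not matched for the other factor. Of the 10 genes, 1 was called for genotype with DESeq2 (Ltf), and for time 1 with DESeq2 and 1 with no filter (Kit both times), and between 0 and 1 without a library (Rspo1 without cKO at 10 days). The cause of these differences between fits was not tested. For genotype, the log2 fold change turned sign when a library was left out for Kit (from -0.80 to 0.45), Cd14 (-0.51 to 0.0352), Lcn2 (-0.96 to 0.36), Wfdc18 (-1.85 to 0.13), Plet1 (-0.59 to 0.0492) and Cyp24a1 (-0.89 to 0.79, and -0.0030 in DESeq2). For time it turned for Cd14 (-0.10 to 0.48), Aldh1a3 (-0.17 to 0.50), Ltf (-0.79 to 3.35), Lbp (-0.44 to 0.27), Wfdc18 (-1.81 to 0.37) and Rspo1 (-4.56 to 0.48). Genotype values of Aldh1a3, Lbp, Ltf and Rspo1 kept their sign in every alternative run. The genotypes did not overlap for these genes, so leaving out a library could not turn the sign and was no test of it. Per kilobase of the longest transcript instead of merged exons, Plet1 had 621 CPM, Lcn2 579, Aldh1a3 36.2, Kit 44.4 and Lbp 26.1. That length is shorter, and the mean of Kit then lay above that of Aldh1a3. Relative to Epcam and claudin genes instead of keratins, the log2 ratio of cKO over WT for Aldh1a3, averaged over the time points, was 0.64 instead of 0.51. With DESeq2's size factors the log2 ratio of 5 weeks over 10 days in WT was -0.66 for Plet1. Depth bears most on Cyp24a1, at 12 to 51 counts. The reported fit already pairs the genotypes by time point. No further pairing was possible, because the labels give no replicate numbers beyond the time point.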
